A study of Mus musculus with 7 samples.

Results

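The transcripts described here were chosen as RNAs that were far scarcer in the vesicles released by mouse macrophage-like cells than in the cells themselves. They are 196 of the 319 transcript rows that held at least 100 counts over the 2 control libraries, from 3612 transcript rows considered and 3894 rows that stand for whole RNAs. They were chosen by their measured levels in the control line expressing a non-silencing hairpin (shNS). There, the level in vesicles was at most 1/32 of that in cells, both in CPM (counts divided by the library's total over the whole-RNA rows and multiplied by 1000000). That ratio in shNS is therefore the choice itself and not a finding, and the tests below rest on the 5 libraries that were not used. The rule left a set of named transcript IDs out, among them the single most abundant transcript of the cell libraries.

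RAW264.7 is a mouse macrophage cell line. Whole-cell RNA came from the shNS line and from a line with a hairpin against Dis3l2 (shDis3l2), and vesicle RNA came from both of these and from shDis3l2 cells that also expressed an empty vector (Vector), a hairpin-resistant Dis3l2 (Dis3l2r) or a catalytically inactive Dis3l2 (D389N). All 7 groups were treated with doxycycline, each was 1 library, and the labels do not say whether a line was a clone or a pool. The cell RNA was depleted of rRNA before library making, whereas no such step is described for the vesicle RNA. The extracellular vesicle (EV) libraries with Vector, Dis3l2r and D389N have no cell library of their own, so all shDis3l2-derived vesicles were compared with the 1 shDis3l2 cell library.

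Dis3l2 is a cytoplasmic 3′ to 5′ exonuclease that degrades noncoding RNAs and microRNA precursors carrying added uridines at their 3′ end. Vesicles released by cells carry a selection of cytoplasmic RNAs, rich in small structured species such as tRNAs and Y RNAs, while many small nuclear and nucleolar RNAs act inside the nucleus. Thermostable group II intron reverse transcriptases (TGIRTs) read through structure and modified bases, so such libraries represent structured noncoding RNAs well.

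The name noncoding could not be checked against gene names, because 0 of 3639 transcript IDs were matched to one, and neither RNA type nor sequence is given for any member. One feature of the table bears on their structure. None of the 196 had an exon or intron row of its own, and each had exactly 1 UTR row beside its transcript row. Of the 61413 transcripts that stand only as pieces, 56.12% had exon rows, 78.53% had intron rows and 0 had exactly 1 UTR row. The other 3416 transcript rows had the same form as the members (99.85% with exactly 1 UTR row), so this form marks transcript rows in general and not the members. Macrophage markers could not be looked up for the same reason.

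The 196 transcripts made up a large part of cellular RNA and a very small part of vesicle RNA. They held 18.25% of the counts in shNS cells and 18.42% in shDis3l2 cells (exact binomial 95% interval 18.40% to 18.43%). In vesicles they held 0.1902% in shNS, 0.1674% in shDis3l2 (0.1656% to 0.1693%), 0.09453% in Vector (0.09333% to 0.09574%), 0.2167% in Dis3l2r (0.2142% to 0.2192%) and 0.09755% in D389N (0.09622% to 0.09890%). The summed share in shDis3l2 cells was 110.0 times that in shDis3l2 vesicles, 194.8 times that in Vector, 84.98 times that in Dis3l2r and 188.8 times that in D389N vesicles. In each of the 4 shDis3l2-derived vesicle libraries the members together were thus scarcer than in cells, and least so in Dis3l2r. These intervals cover counting error only, and each library totalled between 13439408 and 37041326 counts.

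The typical member was also far lower in vesicles. The median CPM was 226.2 in shNS cells and 133.5 in shDis3l2 cells, against 2.677, 2.173, 1.166, 3.162 and 1.288 in the vesicles of shNS, shDis3l2, Vector, Dis3l2r and D389N. In shDis3l2 cells 195 of 196 members stood at 1 CPM or more and 111 at 100 CPM or more. In shDis3l2 vesicles 128 stood at 1 CPM or more and 2 at 100 or more. Members without any count numbered 16 in shDis3l2, 23 in Vector, 17 in Dis3l2r and 16 in D389N vesicles, and 3 counts in these libraries would be 0.1628, 0.1192, 0.2232 and 0.1432 CPM. The 10 most abundant members of a library held between 42.03% and 51.00% of that library's member counts.

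**Figure D1:**
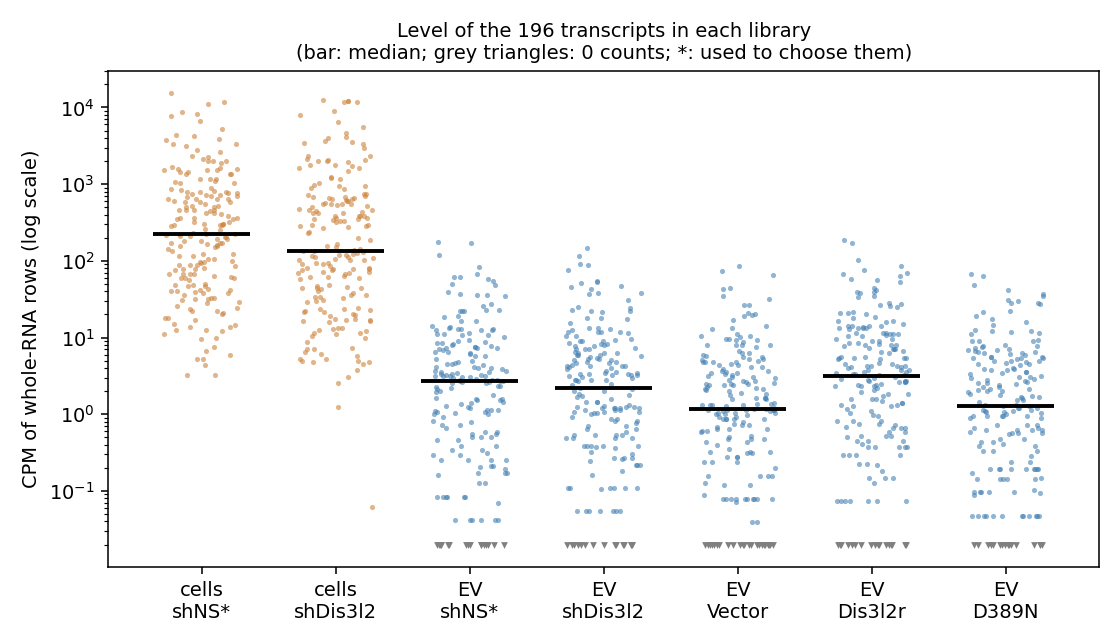
Level of each of the 196 transcripts (1 point each, CPM on a log axis) in the 2 cell and 5 vesicle libraries, with the median as a bar and transcripts without counts as grey triangles. The medians lie at 226.2 and 133.5 CPM in cells and between 1.166 and 3.162 CPM in vesicles, and the shNS libraries marked with an asterisk were used to choose the transcripts.

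The scarcity seen in shNS was also present in the libraries that had not been used. In shDis3l2 vesicles 170 of 196 members (86.73%) were at most 1/32 of their level in shDis3l2 cells. The number was 181 (92.35%) in Vector, 144 (73.47%) in Dis3l2r and 177 (90.31%) in D389N vesicles. Of the rows of any kind with at least 100 counts in the same pair, 41.9% in shDis3l2, 45.8% in Vector, 34.2% in Dis3l2r and 46.9% in D389N met the same limit, and these rows include the members. Members with at least 100 counts in the pair met it in 167 of 192, 177 of 192, 142 of 193 and 176 of 192 cases. That minimum could be passed on counts in the cell library alone. A vesicle library without a count was taken as meeting the limit. Set at 3 counts instead, 164, 177, 140 and 175 of 196 members met it in shDis3l2, Vector, Dis3l2r and D389N vesicles. Under either count the Dis3l2r library had the fewest members past the limit.

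The limit was met in all 4 of these vesicle libraries by 128 members, in 3 by 38, in 2 by 19 and in 1 by 8, again with a library without a count taken as meeting it (124, 37, 20 and 9 with such a library at 3 counts). The 3 members that met it in none had counts in every library and were ENSMUST00000083324, ENSMUST00000104546 and ENSMUST00000116813. ENSMUST00000083324 was 10.51, 12.46, 5.080 and 11.75 times higher in shDis3l2 cells than in shDis3l2, Vector, Dis3l2r and D389N vesicles. ENSMUST00000104546 was 18.85, 21.39, 9.076 and 27.25 times higher in the cells, and ENSMUST00000116813 7.266, 16.83, 6.158 and 15.31 times. Even these 3 were thus more abundant in cells than in every vesicle library, only by less than the limit. With a library without a count set at 3 counts, 3 more met it in none, ENSMUST00000082624, ENSMUST00000157544 and ENSMUST00000175746, which had 2, 40 and 82 counts in shDis3l2 cells, too few for the limit to be reached against 3 counts.

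The 123 measured transcripts above the limit in shNS behaved differently as a set. Their median log2 ratio of shDis3l2 vesicles to shDis3l2 cells was -2.56, against -6.36 for the members. The corresponding medians were -3.43 and -7.13 for Vector, -1.85 and -5.91 for Dis3l2r, and -3.79 and -7.03 for D389N, each time with the 123 first and the members second. Of the 123, 32, 45, 17 and 48 were at most 1/32 in the 4 libraries. Since the limit was drawn inside a continuous range of shNS ratios, the transcripts on its 2 sides differ little: just inside lay ENSMUST00000083346 (32.73-fold higher in cells), ENSMUST00000083370 (33.36-fold) and ENSMUST00000082629 (34.96-fold), and just outside lay ENSMUST00000116811 (32.00-fold as rounded, under the limit unrounded), ENSMUST00000082903 (31.87-fold) and ENSMUST00000082834 (31.22-fold).

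**Figure D2:**
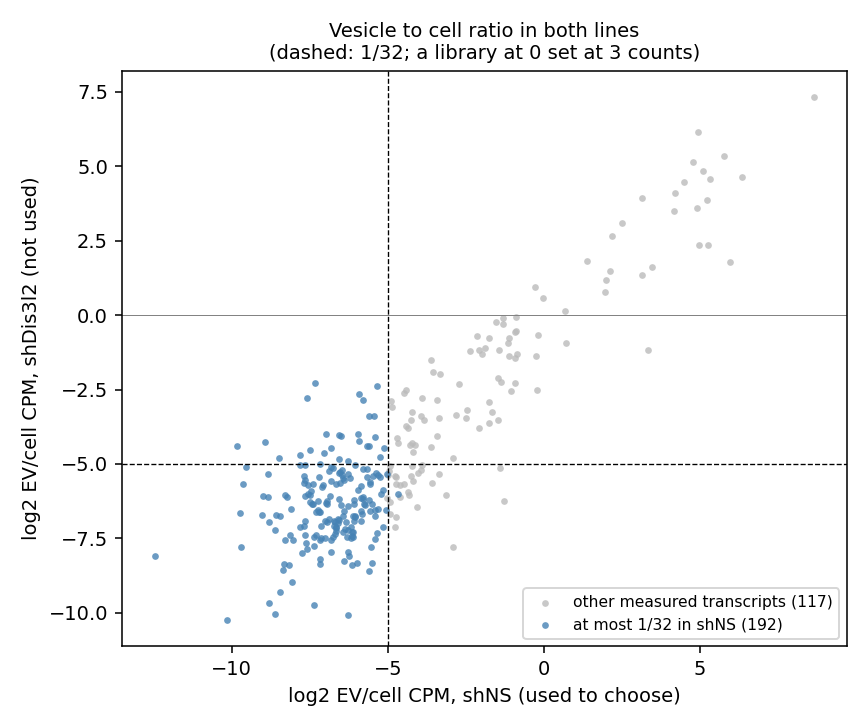
Log2 ratio of vesicle to cell CPM in shNS (horizontal, used to choose the transcripts) and in shDis3l2 (vertical, not used), for the 192 members and 117 other transcripts with at least 100 counts in the shDis3l2 pair. Dashed lines mark 1/32. All 192 members lie below 0 on the vertical axis, while 27 of the 117 others lie above it.

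In the pair of shDis3l2 vesicles and cells, all 192 members with at least 100 counts were lower in vesicles by the rule of size used for single libraries (at least 100 counts over both, at least 2-fold, and an exact conditional binomial 95% interval of the ratio excluding 1), and 0 were higher. Over all 525 rows measured in this pair 58.1% were lower and 33.1% higher. The minimum could be passed on counts in the cell library alone, and 13 of the 192 members had no count in shDis3l2 vesicles. Members low in vesicles were thus measured through the library where they were high. The members' median log2 ratio was -6.38, with quartiles of -7.25 and -5.45 and a range of -10.25 to -2.27. The median over all measured rows was -3.32. Over the 333 rows that were not members it was 1.34.

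The test across the 4 shDis3l2-derived vesicle libraries against the shDis3l2 cell library gave the same picture for single members. By edgeR's quasi-likelihood test with Benjamini-Hochberg adjustment over 700 rows, 188 of the 195 members tested fell in vesicles and 0 rose, beside 39.4% of all rows tested that fell. The median log2 fold change was -6.49 for members and -0.33 for all rows. Of the 196 members, 29 had fewer than 10 counts in each of the 4 vesicle libraries. The low-count filter works on CPM and could be passed on the level in the cell library alone. With no filter all 196 members were tested, 192 fell and 0 rose (beside 21.8% of all 1309 rows), and the median was -6.46. The 4 vesicle libraries were of different genotypes and the lone cell library was assumed to vary as they did, so these adjusted p-values measure the spread among vesicle libraries only.

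The 4 members not called without a filter were chosen for naming after their values were seen. ENSMUST00000083018 (log2 fold change -3.16, SE 1.57, edgeR adjusted p 0.124), ENSMUST00000104170 (-3.80, SE 1.63, adjusted p 0.0583) and ENSMUST00000157544 (-4.69, SE 2.50, adjusted p 0.162) had 161, 158 and 40 counts in shDis3l2 cells and 37, 28 and 3 counts over the 4 vesicle libraries. ENSMUST00000082624 had 466 counts in shNS cells, 2 in shDis3l2 cells and 2 over the 4 vesicle libraries. For that transcript no difference between vesicles and shDis3l2 cells was detectable at this depth.

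The 5 most abundant members in shDis3l2 cells were all far lower in each vesicle library. ENSMUST00000082579 measured 12414 CPM in shDis3l2 cells and 89.10, 43.84, 103.1 and 41.52 CPM in shDis3l2, Vector, Dis3l2r and D389N vesicles. All 4 vesicle values lay below 1/100 of the cell value, and the log2 fold change was -7.48 (SE 0.51, edgeR adjusted p 4.53e-07). ENSMUST00000104375 measured 12235 CPM in those cells and 145.4, 65.34, 184.7 and 63.90 CPM in the same 4 vesicle libraries, a log2 fold change of -6.74 (SE 0.54, edgeR adjusted p 1.05e-06). Its vesicle values fell into a higher pair, shDis3l2 and Dis3l2r, and a lower pair, Vector and D389N.

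ENSMUST00000197029 measured 11756 CPM in shDis3l2 cells and 54.70, 26.41, 68.46 and 30.88 CPM in shDis3l2, Vector, Dis3l2r and D389N vesicles. The same 2 libraries were again high, and the log2 fold change was -8.03 (SE 0.51, edgeR adjusted p 3.62e-07). ENSMUST00000083425 measured 11694 CPM in the cells and 45.64, 26.49, 44.87 and 37.47 CPM in the vesicles, a log2 fold change of -8.24 (SE 0.42, edgeR adjusted p 3.62e-07). For this transcript the D389N value lay nearer to the higher pair. ENSMUST00000083353 measured 12173 CPM in the cells and 114.2, 72.72, 168.8 and 66.44 CPM in the vesicles, a log2 fold change of -6.85 (SE 0.49, edgeR adjusted p 5.34e-07). The direction for the last 2 depended on which row of the table stood for the transcript, as described below.

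Among members with counts in every library, ENSMUST00000083004 had one of the lowest ratios. It measured 2264 and 3552 CPM in shNS and shDis3l2 cells and 6.845, 9.333, 4.766, 10.42 and 6.205 CPM in shNS, shDis3l2, Vector, Dis3l2r and D389N vesicles. Its log2 fold change of vesicles against cells was -8.86 (SE 0.53, edgeR adjusted p 3.62e-07). ENSMUST00000083895 was close to it, with 3956 CPM in shDis3l2 cells and 7.862, 5.767, 9.489 and 12.35 CPM in the 4 vesicle libraries, and was highest in D389N rather than Dis3l2r.

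In their transcript rows, no count was found in any of the 5 vesicle libraries for ENSMUST00000083729, ENSMUST00000083753 and ENSMUST00000104426. ENSMUST00000083729 had 5307 counts in shNS cells and 6410 in shDis3l2 cells (198.2 CPM). Against a floor of 3 counts over the 4 shDis3l2-derived vesicle libraries (0.03846 CPM) the transcript row was at least 5153-fold lower in vesicles. This bound holds for that row only. The UTR row that the table lists for the same transcript, described below, had 6667 and 6787 counts in shNS and shDis3l2 cells and 170, 222, 385, 205 and 171 in shNS, shDis3l2, Vector, Dis3l2r and D389N vesicles, a log2 fold change of -4.05 (edgeR adjusted p 5.97e-06). ENSMUST00000083753 had 368 and 157 counts in the 2 cell libraries and was at least 126.2-fold lower. Its UTR row was at 0 in all 5 vesicle libraries as well. The transcript row of ENSMUST00000104426 had 119 and 341 counts and was at least 273.9-fold lower, while its UTR row had 716 and 1150 counts in cells and 12, 2, 2, 0 and 18 in the vesicle libraries in the same order.

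Members with little RNA in shDis3l2 cells were less depleted in the median. The 196 were put into 4 classes of 49 by their CPM in shDis3l2 cells. The median log2 ratio of shDis3l2 vesicles to cells was -5.32 in the lowest class (up to 31.25 CPM), -6.07 in the next (32.43 to 131.8), -6.55 in the next above (135.2 to 636.8) and -7.08 in the highest (646.2 to 12414). Of these classes, 13, 2, 1 and 0 members were at 0 in shDis3l2 vesicles. The same order held in Vector (-5.93, -6.57, -7.28 and -8.06), Dis3l2r (-5.04, -5.40, -5.95 and -6.69) and D389N (-5.93, -7.02, -7.17 and -7.74). The cell level is in both the grouping and the ratio, and a library at 0 was set at 3 counts, which raises the ratios of the lowest class most.

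Within vesicles the members kept much of the order they had in cells. Across the 180 members with counts in both, log2 CPM in shDis3l2 vesicles and in shDis3l2 cells gave Pearson's r of 0.87 and Spearman's rho of 0.88. For Vector, Dis3l2r and D389N vesicles against the same cells r was 0.86, 0.86 and 0.85. Between pairs of these vesicle libraries r ran from 0.84 to 0.89, so vesicle libraries resembled each other about as much as they resembled the cells. These coefficients are over transcripts, which are not independent replicates, and leave out members at 0. The low level in vesicles was thus spread over the whole set, with a member's rank in cells largely retained.

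Whether Dis3l2 status moved these transcripts within vesicles was asked first by setting shDis3l2, Vector and D389N vesicles against Dis3l2r vesicles. By edgeR's quasi-likelihood test 0 of 165 members tested passed an adjusted p of 0.05, and 1 of 651 rows did (0.154%). The median log2 fold change of members was -0.74, against 0.07 for all rows. By DESeq2 the medians were -0.63 for members and 0.32 for all rows. The fit had 2 residual degrees of freedom and the single Dis3l2r library stood for its whole class.

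Pairs of single vesicle libraries were then set side by side under the rule of size, without a test. Of the 4 pairs run, Dis3l2r against Vector had the most members past the rule with TMM scaling, though not with exon-piece totals, as given below. Of 84 members measured, 57 were higher with Dis3l2r and 0 lower, beside 24.7% of all rows higher and 7.38% lower. The members' median log2 ratio was 1.30 (quartiles 0.88 and 1.65), against 0.08 over all rows and 0.55 over the 87 other measured transcripts, of which 34 were higher and 2 lower. In all, 81 of the 84 members were above 0.

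The members named next had the largest Dis3l2r to Vector ratios among the 84 with at least 100 counts in the pair, and some members with fewer counts had larger ratios. ENSMUST00000082703 had 35 counts in Vector and 95 in Dis3l2r vesicles (1.390 and 7.069 CPM), a log2 ratio of 2.28 (95% interval 1.70 to 2.88). Its level in D389N vesicles was 1.766 CPM, near that in Vector, and in shDis3l2 vesicles 8.085 CPM, above that in Dis3l2r. ENSMUST00000082670 measured 11.79, 2.425, 11.45 and 1.078 CPM in shDis3l2, Vector, Dis3l2r and D389N vesicles, a log2 ratio of Dis3l2r to Vector of 2.17 (1.74 to 2.62). ENSMUST00000122718 measured 1.296, 1.339, 6.379 and 1.087 CPM, a log2 ratio of 2.18 (1.59 to 2.79). Of these 3, only ENSMUST00000122718 was high in Dis3l2r alone, while the other 2 were as high in shDis3l2 vesicles, which were made from knockdown cells without a transgene.

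The remaining pairs share libraries with this one, so their values stand beside it and do not support it. D389N against Vector (sharing Vector) had 17 members higher and 2 lower out of 78, beside 10.8% and 12.4% of all rows. The median log2 ratio was 0.39 against 0.08 over all rows. D389N against Dis3l2r (sharing Dis3l2r) had 2 members higher and 37 lower out of 84, beside 2.64% and 21.9%. The median was -0.91 against -0.11. Vector against shDis3l2, both made from knockdown cells without active transgene, had 2 members higher and 32 lower out of 84, beside 8.91% and 15% of all rows. The median was -0.87 against -0.06. The members' medians of the last 2 pairs, -0.91 and -0.87, were thus of like size. Each pair is of single libraries, and the cause of either difference was not tested.

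**Figure D3:**
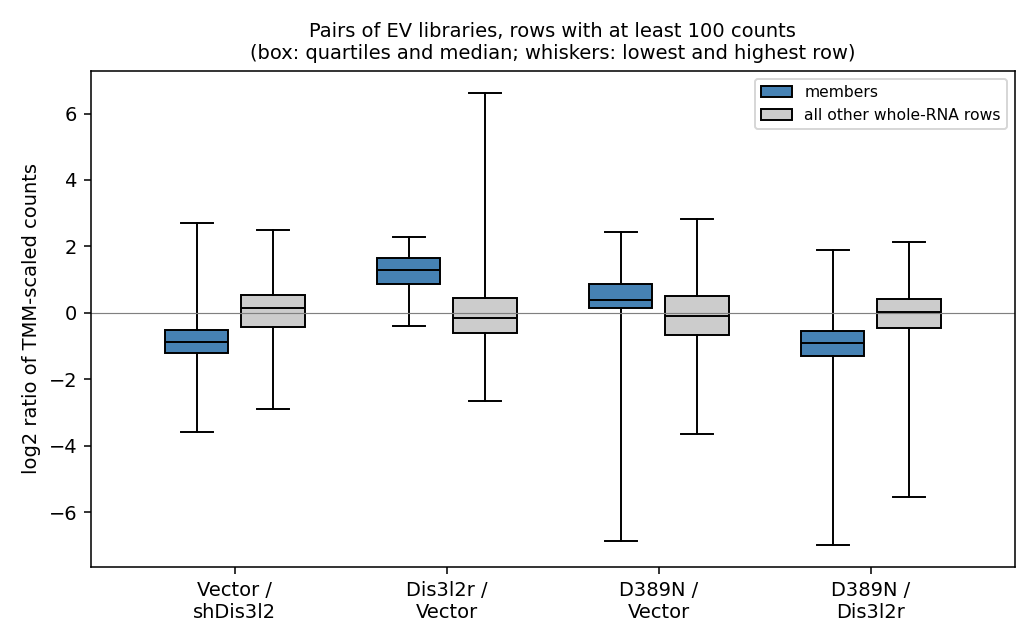
Log2 ratio of TMM-scaled counts between pairs of vesicle libraries for members (blue) and all other whole-RNA rows (grey) with at least 100 counts in the pair; boxes give quartiles and median and whiskers the lowest and highest row. The members' medians are -0.87, 1.30, 0.39 and -0.91 from left to right, and Vector or Dis3l2r enters every pair.

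Other measures of the vesicle libraries moved with the members' share. From highest to lowest member share the order was Dis3l2r, shNS, shDis3l2, D389N and Vector. In this order the share of all counts in exon pieces was 1.230%, 1.006%, 0.9270%, 0.7697% and 0.7129%. The share of whole-RNA counts held by ENSMUST00000083988, the transcript that was most abundant in shDis3l2 cells at 46.07%, was 8.300%, 5.335%, 3.434%, 3.319% and 2.083%. All 3 shares thus put the 5 libraries in the same order. With exon-piece totals as depth, the count for Dis3l2r against Vector was 7 higher and 3 lower, and the members' median was 0.41 against -0.81 over all rows. These totals shift every row of the pair by the same amount, and the share of all rows past the rule was not counted with them. The part of these measures in the differences between vesicle libraries was not tested.

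One member with wide differences between vesicle libraries was picked out after its values were seen, though others differed widely as well. ENSMUST00000083886 had 332, 58, 502, 285 and 3 counts in shNS, shDis3l2, Vector, Dis3l2r and D389N vesicles, which is 14.04, 3.144, 19.92, 21.18 and 0.1462 CPM. Its log2 ratio of D389N to Vector was -6.87 (95% interval -9.15 to -5.31), the lowest of all 379 rows in that pair, and that of Vector to shDis3l2 was 2.70 (2.30 to 3.12), the highest of 393. In cells it had 22220 and 9565 counts in shNS and shDis3l2. Its level thus varied over a far wider range among vesicles than between the 2 cell libraries. Another member, ENSMUST00000083791, had the lowest log2 ratio of Vector to shDis3l2 among the 393 rows, -3.60 (95% interval -4.59 to -2.74).

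Members stood both higher and lower in knockdown cells. Against shNS cells, whose levels were used in choosing the members, 9 of 196 were higher and 56 lower in shDis3l2 cells by the rule of size, beside 11.7% and 24% of all rows, and nothing is read from these counts because the choice favoured transcripts high in shNS cells. The median log2 ratio was -0.09, against -0.17 over all rows. With TMM scaling the values were spread about as widely as over all rows. Quartiles were -1.12 and 0.60 for the members and -0.98 and 0.60 for all 513 rows measured, which include the members. The 115 other transcripts measured in this pair had quartiles of -0.38 and 1.07 and a median of 0.51. Of the 180 members with at least 1000 counts, 52 were below -1 (median -1.35), 93 were above 0 (median 0.62) and 35 lay between. The values that follow are a description of the same 2 cell libraries.

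Members with many counts stood on either side. ENSMUST00000082519 dropped from 792.6 CPM in shNS cells to 110.7 in shDis3l2 cells, a log2 ratio of -2.57 (95% interval -2.62 to -2.52). ENSMUST00000175268 went from 170.1 to 16.58 CPM, a log2 ratio of -3.09 (-3.22 to -2.97). On the other side, ENSMUST00000082493 went from 800.6 to 1995 CPM, a log2 ratio of 1.58 (1.56 to 1.60), and ENSMUST00000083370 from 1169 to 2326 CPM, a log2 ratio of 1.26 (1.24 to 1.28). The intervals hold counting error of 2 libraries only, and there is no replicate of either. Which side of 2-fold a member fell on depended on the scaling: 2 were higher and 74 lower with the totals of the whole-RNA rows, and 38 higher and 31 lower when the most abundant transcript was left out of the totals, a transcript that held 19.30% of counts in shNS cells and 46.07% in shDis3l2 cells. The medians of members and of all rows moved together. They were -0.36 and -0.43 with the former totals and 0.22 and 0.15 with the latter.

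The vesicle levels of the same members are given only as a description, because the shNS cell and shNS vesicle libraries both entered the choice. The 52 members below -1 in cells had median levels of 219.2 and 76.90 CPM in shNS and shDis3l2 cells, and of 2.239 and 1.519 CPM in shNS and shDis3l2 vesicles. The 56 members above 0.5 in cells had medians of 406.5 and 547.8 CPM in cells and of 3.739 and 4.260 CPM in vesicles. Members of both kinds were thus low in the vesicles of both lines.

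Each member is listed a further time in the table as a UTR row, and for most the 2 rows held nearly the same counts. In shDis3l2 cells the UTR row was within 10% of the transcript row for 118 members, between 10% and 90% for 49, under 10% for 24 and over 110% for 5. Summed over members, UTR rows held 70.55% of the transcript rows' counts in shDis3l2 cells and 84.85% in shDis3l2 vesicles. With UTR rows in place of transcript rows, 173 of 195 members tested fell in vesicles by edgeR's quasi-likelihood test and 4 rose. The median log2 fold change in that fit was -6.24 for members and 1.57 over all 1148 rows tested. The sources used here do not say what the submitters counted into each of the 2 rows.

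The 4 that rose as UTR rows were ENSMUST00000083353, ENSMUST00000083425, ENSMUST00000104523 and ENSMUST00000175078. ENSMUST00000083425 had 10 UTR counts and 378224 transcript counts in shDis3l2 cells, but 840 UTR counts and 841 transcript counts in shDis3l2 vesicles. Its UTR row had a log2 fold change of 6.92 (edgeR adjusted p 0.000112), against -8.24 for its transcript row. ENSMUST00000083353 had 13 UTR and 393703 transcript counts in the cells and 511 and 2105 in the vesicles, and ENSMUST00000104523 had 26 and 97125 in the cells and 391 and 409 in the vesicles. In these the UTR row thus held almost none of the transcript's counts in cells and a far larger part of them in vesicles. Their direction rests on the transcript row and is not settled by the table.

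**Figure D4:**
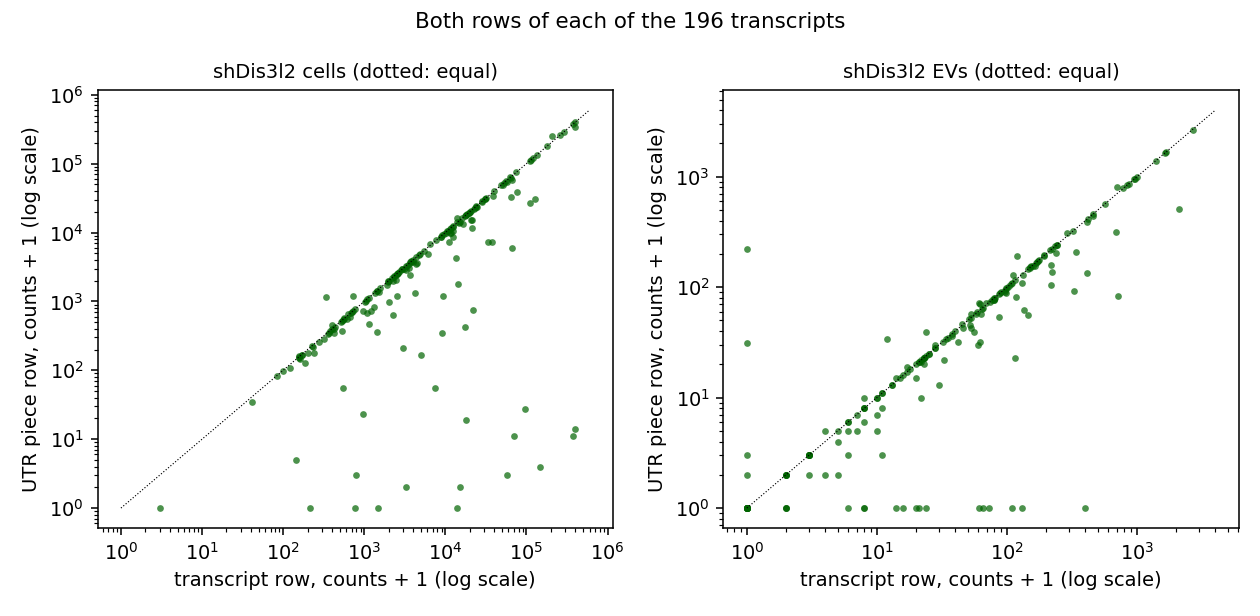
Counts plus 1 in the transcript row (horizontal) and the UTR row (vertical) of each of the 196 members in shDis3l2 cells (left) and shDis3l2 vesicles (right), both axes logarithmic, with equality dotted. In cells 24 members lie under 10% of equality, among them several of the most abundant.

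A vesicle preparation was measured as a whole, so fewer vesicles carrying a transcript and fewer copies per vesicle cannot be told apart. Because cell RNA was depleted of rRNA, and because 1 transcript took 46.07% of counts in shDis3l2 cells, CPM values in cells and in vesicles are shares of differently composed libraries. Without that transcript in the totals the median log2 fold change (edgeR) was -7.31 for members and -1.24 over all rows. With exon-piece totals the medians were -6.31 and -0.08, and in the main fit they were -6.49 and -0.33. The change of totals thus moved all rows as well as the members. The 2 cell libraries differed in composition too: exon pieces held 0.03749% of all counts in shNS cells and 0.8266% in shDis3l2 cells. The part of rRNA depletion, or of this difference, in the values of this report was not tested.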

How the data were processed

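The values are estimated counts per row, unscaled, from a single table that the authors deposited. The tools named in the submitters' processing notes are Salmon, Novoalign, cutadapt and UMI-tools, and the builds are mm10 and GRCm38. Versions, settings and any removal of duplicate reads are not stated there. Estimated counts were rounded for intervals and fits. Groups came from the labels (1 library each, 7 in all). Totals over the 3894 whole-RNA rows were the depth, and 9 columns without a name or values were not used.

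Members and lists were chosen with earlier results of these data known. Vesicles were compared with cells by edgeR 4.0.16 (quasi-likelihood, filterByExpr, totals as library sizes, 3 residual degrees of freedom), and vesicle classes by edgeR with TMM, each with Benjamini-Hochberg adjustment over all rows and a threshold of 0.05. The SE of a fit is the absolute log2 fold change over the square root of F. Single pairs were compared by the rule of size, scaled by TMM (vesicles against cells by totals); a library at 0 was set at 3 counts. DESeq2 1.42.0, other scalings, filters, count minimums and thresholds, and leaving out each vesicle library in turn were alternatives. The edgeR fit was tested on simulated data. Transcripts were named by rule: the 10 highest by mean CPM, the 5 highest and 5 lowest fold changes of vesicles against cells, the 5 largest rises and falls past the rule of size of shDis3l2 against shNS cells and of Dis3l2r against Vector (where no member was lower), and 3 on either side of the limit; those with the clearest values are given, and exceptions are said to be chosen after their values were seen. Grouping by RNA class, sequence features and cell type markers could not be run, since IDs matched no name.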

Additional observations from a re-analysis of the deposited data

How the results depend on the processing

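The number of members lower in vesicles than in cells (188) ran from 143 to 221 over 14 alternatives, the extremes being members chosen at 1/64 and at 1/16; leaving out 1 vesicle library gave 183 to 191. The members tested numbered 195 in the main fit, 149 at 1/64 and 231 at 1/16. Their median log2 fold changes were -6.49, -6.67 and -6.30. With transcript rows, the 192 of 192 members lower in shDis3l2 vesicles ran from 167 of 167 (minimum of 500 counts) to 195 of 195 (minimum of 20 counts). With UTR rows in place of transcript rows, an alternative chosen after seeing the data, 174 of 179 were lower and 5 were higher. The 0 calls for Dis3l2 class stayed at 0 under each alternative run. Pairs of vesicle libraries depended on the settings. With exon-piece totals, an alternative chosen after seeing the data, members past the rule of size went from 57 to 10 for Dis3l2r against Vector, from 19 to 10 for D389N against Vector, from 39 to 14 for D389N against Dis3l2r and from 34 to 12 for Vector against shDis3l2. With a minimum of 500 counts they were 19 of 27, 4 of 21, 11 of 23 and 14 of 26 members measured. With a minimum of 20 counts the last 3 were 42 of 140, 68 of 137 and 65 of 148. A change of totals shifts the log2 ratios of all rows in a pair by the same amount. For Dis3l2r against Vector, exon-piece totals took the members' median from 1.30 to 0.41 and that of all rows from 0.08 to -0.81. Which totals give the truer depth was not tested, and all rows past the rule were not counted under these alternatives. The minimums change how many members are measured. Of 154 values for 14 named members, 3 reversed, all with UTR rows (also chosen after seeing the data): ENSMUST00000082967 to 4.94, ENSMUST00000083353 to 6.0 and ENSMUST00000083425 to 6.92 on the log2 scale. No paired analysis was possible because the labels give no replicate numbers; the shNS cell and vesicle libraries, the only other pair of a line, were used to choose the members. With 1 library a group, depth limits members under about 3 counts in vesicles, where only a bound on the fold can be given.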

Other observations

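Whole and fractional counts divided the members. For 49 of 196 the estimated counts were whole numbers (within 0.001) in all 7 libraries, and 147 had a fraction in at least 1 library. The median log2 ratio of shDis3l2 vesicles to shDis3l2 cells was -6.75 for the 49 and -6.25 for the 147. The median CPM in shDis3l2 cells was 124.8 and 135.2. No member had the same 7 counts as another row of the table.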
